A study of Mus musculus with 11 samples.

Results

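Sperm from Dicer conditional knockout (cKO) mice were set directly against sperm from Drosha cKO mice, and no WT library entered the comparison. Of the 11 small RNA libraries of the series, 5 belong to the comparison, 2 from Dicer cKO sperm and 3 from Drosha cKO sperm. All 2304 listed small RNAs, 1592 mature miRNAs and 712 endogenous siRNAs (endo-siRNAs), were taken. Both groups came from adult mice on a C57BL/6 background in which a floxed gene was removed from the germ line by Cre recombinase, and the labels do not name the Cre driver. Sperm were released from the cauda epididymis, the storage end of the duct that leaves the testis, and pelleted by low-speed spinning. The 2 WT sperm libraries appear only as values beside a result.

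Drosha works in the nucleus, where its complex cuts a hairpin precursor out of a longer miRNA transcript. Dicer then cuts the loop off that hairpin in the cytoplasm, and it also cuts long double-stranded RNA into endo-siRNAs without any need for Drosha. Some RNAs pass only 1 of the 2 enzymes: mirtrons, whose hairpin is an intron released by splicing, need Dicer and not Drosha, whereas miR-451a needs Drosha but is cut by Ago2 in place of Dicer. Sperm lose most of their cytoplasm in the testis and take up small RNAs while they pass through the epididymis, so the RNA of a sperm pellet need not come from the germ line alone. Levels of Dicer and Drosha mRNA were not measured in these libraries, and the loss of each enzyme could therefore not be checked.

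The miRNAs on which the comparison turned fall into 3 sets. Their mature sequences are given from RefSeq on the mouse GRCm38.p6 assembly, with the seed (bases 2 to 8, counted from the 5′ end), which pairs with target mRNAs, in capitals. The first set was higher in Dicer cKO sperm. The 7 miRNAs called higher that had a RefSeq sequence had a median of 40.9% G and C. The set includes miR-451a and 2 called members of the miR-30 family, and miR-30a-5p, which was not called, is shown because it has the same seed.
miR-451a: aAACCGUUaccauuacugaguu
miR-30c-5p: uGUAAACAuccuacacucucagc
miR-30e-5p: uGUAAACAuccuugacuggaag
miR-30a-5p: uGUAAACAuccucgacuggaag
miR-21a-5p: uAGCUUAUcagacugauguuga
miR-141-3p: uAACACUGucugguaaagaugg
miR-23a-3p: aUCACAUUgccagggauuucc

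The second set was lower in Dicer cKO sperm and is rich in G and C, from 72.7% in miR-1895 to 100% in miR-5126. Their hairpins do not end at an annotated splice site.
miR-8101: gGCGAGCGgagccggaggagcc
miR-149-3p: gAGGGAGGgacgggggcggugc
miR-5126: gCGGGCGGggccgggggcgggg
miR-6538: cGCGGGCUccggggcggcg
miR-762: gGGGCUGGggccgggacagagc
miR-1895: cCCCCGAGgaggacgaggagga
miR-5130: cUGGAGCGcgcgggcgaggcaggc
miR-2137: gCCGGCGGgagccccagggag

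The third set comes from hairpins whose end lies at an annotated splice site. The first 6 were lower and the last was higher in Dicer cKO sperm, and the 2 arms named -3p end in the bases CAG in front of the splice site. For miR-34b-3p, a testis miRNA that was also lower, the sequence is given last.
miR-3547-5p: gUGGGAAGagggguggggcccggga
miR-7044-5p: gUGUGGUGgugguggcggc
miR-6937-5p: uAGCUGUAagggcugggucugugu
miR-6917-3p: gUCACUUCucuucccaccacag
miR-7045-5p: aGCGGGUGggggagggggacu
miR-7115-5p: uCGGGGGUuguggugccgaauugu
miR-6918-3p: uGAGCCUGugcccuucucacag
miR-34b-3p: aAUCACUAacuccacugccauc

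Depth differed widely. The listed RNAs held 122989 and 108141 reads in Dicer cKO sperm, against 100934, 12003 and 15921 reads in Drosha cKO sperm. Levels are given as CPM, counts scaled to a common total of listed reads, and 3 reads, taken as the floor of detection, corresponded to 24.4 and 27.7 CPM in Dicer cKO sperm and to 29.7, 249.9 and 188.4 CPM in Drosha cKO sperm. The authors' own RPM values (scaled reads) rest on a larger whole number for each library, of which listed reads made up 4.43% and 7.01% in Dicer cKO sperm, against 2.70%, 2.91% and 2.11% in Drosha cKO sperm. The 2 groups did not overlap in this share, and the exact two-sided permutation test gave p = 0.2, the smallest p that 2 against 3 libraries allow. On the scale of those whole numbers the median tested RNA was higher in Dicer cKO sperm, by the log2 change given with the calls. Across the 281 better measured RNAs the 2 Dicer cKO libraries correlated at r = 0.975, the Drosha cKO libraries at r = 0.883 to 0.904 among themselves, and libraries of different groups at r = 0.871 to 0.916 (Pearson, log2 of CPM plus 100). Drosha cKO replicate 1 correlated more closely with Dicer cKO replicate 1 (r = 0.916) than with the other Drosha cKO libraries (0.883 and 0.903). Drosha cKO replicate 2 was also closer to Dicer cKO replicate 2 (0.888) than to Drosha cKO replicate 1 (0.883), though closest to Drosha cKO replicate 3 (0.904). Only Drosha cKO replicate 3 was closer to both other Drosha cKO libraries (0.903 and 0.904) than to the Dicer cKO libraries (0.871 and 0.875).

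After a filter on low counts, 300 RNAs were tested, 288 miRNAs and 12 endo-siRNAs. edgeR's quasi-likelihood test with TMM scaling called 31 of them at an adjusted p under 0.05 (Benjamini-Hochberg), or 10.3%. Of these, 10 were higher in Dicer cKO sperm (3.33% of those tested) and 21 were lower (7%), and 86 RNAs had an unadjusted p under 0.05. The 10 higher RNAs held 11.6% and 13.2% of listed reads in Dicer cKO sperm, against 6.70%, 5.80% and 6.67% in Drosha cKO sperm. The 21 lower RNAs held 1.91% and 1.44% in Dicer cKO sperm, against 8.70%, 5.60% and 8.28% in Drosha cKO sperm. In CPM, 126 of the 300 RNAs (42%) did not overlap between the groups, 49 higher (16.3%) and 77 lower (25.7%) in Dicer cKO sperm.

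These calls rested on few libraries. Without Drosha cKO replicate 3, edgeR called no RNA in either direction, with 64 at an unadjusted p under 0.05 and a lowest adjusted p of 0.0706. Without Dicer cKO replicate 1 it called 1 higher and 1 lower, without Dicer cKO replicate 2 it called 1 higher and 2 lower, and without Drosha cKO replicate 1 it called 20 higher and 35 lower. Leaving out Drosha cKO replicate 2 gave 10 higher and 35 lower. The scaling set the balance of the calls: with library totals alone 5 were higher and 35 lower, whereas with the whole numbers behind the authors' RPM 69 were higher and 6 lower. That last scaling shifted the median log2 change of all tested RNAs to 1.01, against 0.11 with TMM and -0.17 with library totals alone. In the authors' RPM, 15 of the 21 lower RNAs still did not overlap between the groups in the same direction. All 10 higher RNAs did not overlap either, but the scaling fixed this in advance. Listed reads made up a larger share in both Dicer cKO libraries, so an RNA higher there without overlap in CPM stays so in RPM. The share of all tested RNAs without overlap in RPM is not given here.

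**Figure D1:**
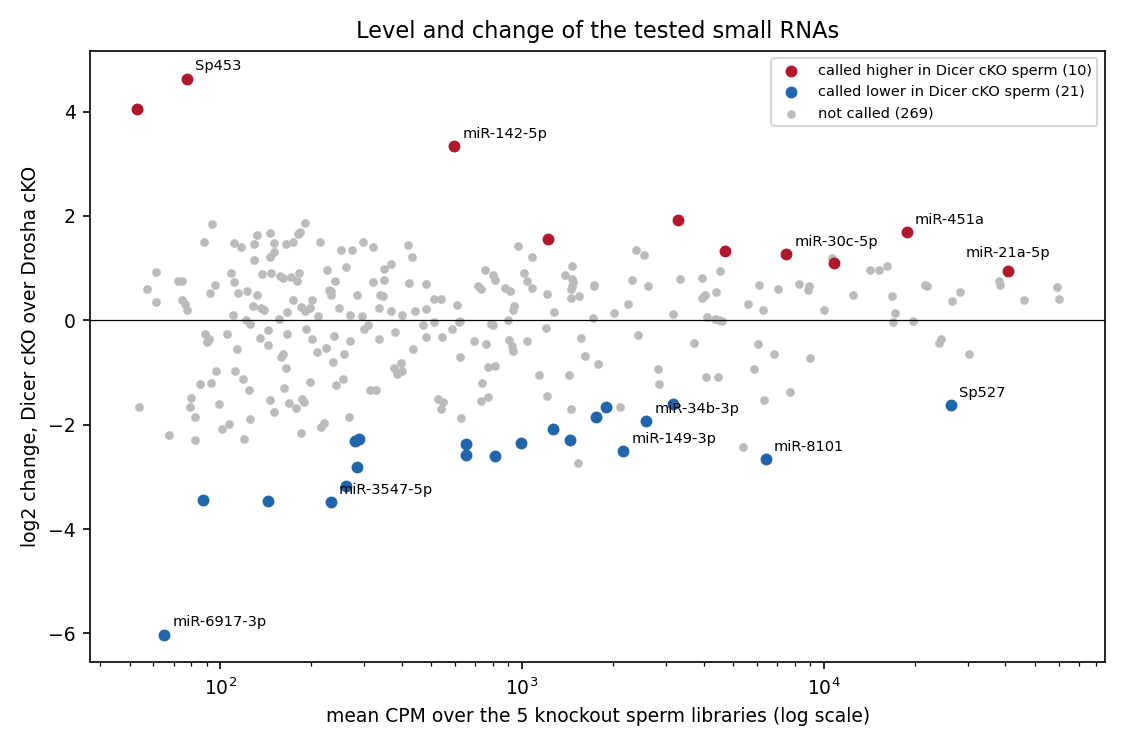
Each point is 1 of the 300 tested small RNAs, by its mean level over the 5 knockout libraries (CPM, log axis) and its log2 change in Dicer cKO over Drosha cKO sperm, in red where called higher (10), in blue where called lower (21) and in grey where not called (269). The abundant calls are miR-451a and miR-21a-5p above the line and Sp527 and miR-8101 below it, while the largest fitted changes, such as that of miR-6917-3p, stand at low levels.

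miR-451a, which Ago2 matures without Dicer and which fills red blood cells, was the called miRNA of lowest adjusted p among those higher in Dicer cKO sperm. It stood at 33556 and 26632 CPM in Dicer cKO sperm and at 14485, 8581 and 10803 CPM in Drosha cKO sperm. Both Dicer cKO libraries lay above all 3 Drosha cKO libraries, with a log2 change of 1.69 ± 0.32 (SE) and an adjusted p of 0.00746 by edgeR. In the 2 WT libraries it stood at 3244 and 1585 CPM, below all 5 knockout libraries. It was no longer called without Dicer cKO replicate 1 (adjusted p = 0.134) or without Drosha cKO replicate 3 (adjusted p = 0.0706). In the authors' RPM the groups stood at 1485 and 1867 RPM in Dicer cKO sperm and 390.5, 249.7 and 228.1 RPM in Drosha cKO sperm. That scaling could only widen a gap in this direction, so the values add no support.

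miR-144, transcribed together with miR-451a in red cell precursors, matures by way of Dicer. Its 3p arm stood at 5683 and 10394 CPM in Dicer cKO sperm and at 2784, 7998 and 8479 CPM in Drosha cKO sperm, and the groups overlapped (log2 change 0.59 ± 0.457, adjusted p = 0.393 by edgeR). The number of miR-451a reads per miR-144-3p read was 5.90 and 2.56 in Dicer cKO sperm, against 5.20, 1.07 and 1.27 in Drosha cKO sperm. This ratio also overlapped, with Drosha cKO replicate 1 close to the higher Dicer cKO value. The 3 red cell marker arms together held 4.04% and 3.84% of listed reads in Dicer cKO sperm, against 1.83%, 1.72% and 2.02% in Drosha cKO sperm.

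Leukocyte miRNAs stood higher too. miR-142-3p, a miRNA of blood cells in general, had 4415 and 6667 CPM in Dicer cKO sperm and 1298, 1500 and 2575 CPM in Drosha cKO sperm (log2 change 1.91 ± 0.443, adjusted p = 0.0151 by edgeR). Its other arm, miR-142-5p, had 430.9 and 2044 CPM in Dicer cKO sperm and 99.1, 83.3 and 314.1 CPM in Drosha cKO sperm (log2 change 3.33 ± 0.748, adjusted p = 0.0129 by edgeR). Neither arm overlapped between the groups, although Dicer cKO replicate 2 carried most of the second difference. Without that library miR-142-5p was at a log2 change of 1.74 with an adjusted p of 0.401, and miR-142-3p at 1.55 with an adjusted p of 0.277. The calls of both arms were also lost without Drosha cKO replicate 3, and that of miR-142-3p without Dicer cKO replicate 1 as well. miR-150-5p, of mature lymphocytes, had a log2 change of 1.34 ± 0.468 and did not pass (adjusted p = 0.0729 by edgeR). All 5 tested leukocyte arms had a positive log2 change, with 2 called higher and none lower, against 3.33% and 7% of all tested RNAs, and a median of 1.34. The whole list of 9 arms held 1.12% and 1.32% of listed reads in Dicer cKO sperm, against 0.434%, 0.558% and 0.540% in Drosha cKO sperm. In WT sperm it held 0.165% and 0.272%. Fewer cells of a type in a pellet and less RNA per cell cannot be told apart in such bulk libraries, and the part of blood RNA in the other differences was not tested.

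The miR-30 family shares 1 seed, printed above in capitals, and is abundant in many tissues. Of its 7 tested arms, 2 were called higher in Dicer cKO sperm and none lower, against 3.33% and 7% of all tested RNAs, with a median log2 change of 1.04. The count of 2 depended on the scaling and became 1 with DESeq2 size factors, 0 with library totals alone and 6 with the authors' whole numbers, and it was 0 when miRNAs were fitted alone and 5 at 10 CPM in 2 libraries. miR-30c-5p stood at 9188 and 12206 CPM in Dicer cKO sperm and at 5509, 5332 and 5213 CPM in Drosha cKO sperm, a log2 change of 1.26 ± 0.35 with an adjusted p of 0.0312 by edgeR. Its 3 Drosha cKO values lay within a narrow band below both Dicer cKO values, while WT sperm had 12538 and 18427 CPM. miR-30e-5p stood at 1651 and 2136 CPM in Dicer cKO sperm, against 822.3, 666.5 and 816.5 CPM in Drosha cKO sperm (log2 change 1.56 ± 0.481, adjusted p = 0.0463 by edgeR). miR-30a-5p, miR-30b-5p and miR-30d-5p, the other abundant members, had log2 changes of 0.97, 1.04 and 0.96 and adjusted p-values of 0.0614, 0.0614 and 0.0631 by edgeR. The 12 listed arms of the family held 7.05% and 7.63% of listed reads in Dicer cKO sperm, against 4.41%, 4.26% and 4.37% in Drosha cKO sperm and 7.67% and 8.76% in WT sperm. Dicer cKO sperm thus lay near the WT values and Drosha cKO sperm below them. Both calls were lost when either Dicer cKO library was left out or Drosha cKO replicate 3 was, and that of miR-30e-5p without Drosha cKO replicate 2 too.

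The other miRNAs called higher were miR-21a-5p, miR-141-3p and miR-23a-3p, and each is abundant in somatic tissue. miR-21a-5p, found in nearly all tissues and raised in injured ones, stood at 48273 and 57064 CPM in Dicer cKO sperm and at 33695, 31909 and 33478 CPM in Drosha cKO sperm (log2 change 0.94 ± 0.273, adjusted p = 0.0413 by edgeR). The groups were clearly separate, and the change was the smallest among the 31 calls. miR-141-3p, of the epithelial miR-200 family, stood at 11595 and 17708 CPM in Dicer cKO sperm and at 7936, 7831 and 8856 CPM in Drosha cKO sperm (log2 change 1.10 ± 0.335, adjusted p = 0.0463 by edgeR). miR-23a-3p stood at 6919 and 6741 CPM in Dicer cKO sperm and at 3161, 2083 and 4648 CPM in Drosha cKO sperm (log2 change 1.33 ± 0.405, adjusted p = 0.0463 by edgeR). None of the 3 was called when any 1 library other than Drosha cKO replicate 1 was left out.

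Of the 10 epithelial arms, 8 were tested and miR-141-3p alone was called higher, with none lower, against 3.33% and 7% of all tested RNAs. DESeq2 called 0 of the 8. The list's share overlapped between the groups. It was 13.1% and 16.2% of listed reads in Dicer cKO sperm, against 11.5%, 14.3% and 11.6% in Drosha cKO sperm. WT sperm held 1.59% and 1.82%. miR-200c-3p, the most abundant epithelial member, was at 62599 and 64545 CPM in Dicer cKO sperm and 66291, 59735 and 47045 CPM in Drosha cKO sperm, and these values overlapped (log2 change 0.41 ± 0.27, adjusted p = 0.308 by edgeR). Of the 7 stromal and smooth muscle arms tested, none was called in either direction by edgeR, with a median log2 change of 0.68, 1 arm at an unadjusted p under 0.05 and 0 calls by DESeq2. The list held 2.74% and 1.97% of listed reads in Dicer cKO sperm, against 1.79%, 1.15% and 1.51% in Drosha cKO sperm.

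miR-8101 had the lowest adjusted p of all tested RNAs and was lower in Dicer cKO sperm. Its hairpin lies at chr11:102230040-102230150 on the minus strand of GRCm38.p6, and an exact match placed it in a UTR exon of Hdac5, a histone deacetylase gene, in the older NCBIM37 annotation. It stood at 1187 and 1387 CPM in Dicer cKO sperm and at 9719, 5999 and 13755 CPM in Drosha cKO sperm. All Drosha cKO libraries lay well above both Dicer cKO libraries, which in turn lay above WT sperm at 640.5 and 688.4 CPM. The log2 change was -2.66 ± 0.448 with an adjusted p of 0.00376 by edgeR, and it was -1.70 with an adjusted p of 0.0242 when the authors' whole numbers set the scale. Without Dicer cKO replicate 1 the adjusted p was 0.0501, and without Drosha cKO replicate 3 it was 0.0706.

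miR-8101 was 1 of a group of G- and C-rich miRNAs. Of the 288 tested miRNAs, 242 (84.0%) had a RefSeq sequence. The 18 called lower among them had a median of 74.8% G and C, the 7 called higher 40.9%, and all 242 together 45.5%. Of the 16 tested miRNAs with at least 70% G and C, 11 were called lower and none higher, against 7% called lower among all tested RNAs, and their median log2 change was -2.30. All 16 had a negative log2 change, and 15 did not overlap between the groups, set against 25.7% of all tested RNAs that lay lower without overlap. The count of 11 fell to 5 when the authors' whole numbers set the scale, to 4 with no filter, to 7 at 10 CPM in 2 libraries, to 2 with limma on RPM, to 1 without Dicer cKO replicate 2, and to 0 without Dicer cKO replicate 1 or Drosha cKO replicate 3.

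The median change was negative from 60% G and C on, while single calls in both directions also lay below that. The median log2 change was 0.25 for the 62 miRNAs under 40% G and C, 0.48 for the 92 from 40% to 50%, 0.20 for the 50 from 50% to 60%, -0.67 for the 22 from 60% to 70% and -2.30 for the 16 above. In the same order, 1, 3, 3, 0 and 11 miRNAs were called lower and 2, 4, 1, 0 and 0 higher. Across the 242 miRNAs the Pearson correlation between G and C content and log2 change was -0.39. When the mean of the Dicer cKO libraries was set against each Drosha cKO library alone, on log2 of CPM plus 100, r was -0.55 for replicate 1, -0.10 for replicate 2 and -0.32 for replicate 3. The relation was weak for replicate 2, the shallowest library. By first base, 29 tested miRNAs began with G, of which 8 were lower and none higher, at a median log2 change of -0.97. Another 129 began with U, of which 4 were lower and 5 higher, at a median of 0.37. Of 34 tested miRNAs numbered 5000 and above, which were catalogued late and are mostly rare, 10 were lower and 1 higher, at a median of -1.59. Among all tested RNAs 7% were called lower and 3.33% higher. These groupings share members with the G- and C-rich miRNAs called lower, so they are not separate patterns. Of those, miR-8101, miR-149-3p, miR-5126, miR-762, miR-2137, miR-3547-5p and miR-7044-5p begin with G. miR-8101, miR-5126, miR-5130, miR-6538, miR-7044-5p and miR-7045-5p are numbered 5000 and above.

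A miRNA at low level could pass the filter through the group in which it was high, so the reads of all listed members were also summed, with no filter. All 72 listed miRNAs of at least 70% G and C held 0.530% and 0.498% of listed reads in Dicer cKO sperm, against 3.09%, 1.32% and 3.61% in Drosha cKO sperm and 0.417% and 0.209% in WT sperm. The groups did not overlap, and Dicer cKO sperm stood closer to WT sperm. In the authors' RPM the sums also stayed apart, at 234.6 and 349.5 RPM in Dicer cKO sperm and 832.1, 383.0 and 761.1 RPM in Drosha cKO sperm. The 56 members that were not tested held 0.0553% and 0.0527% in Dicer cKO sperm, against 0.144%, 0.0667% and 0.0879% in Drosha cKO sperm. This difference between the untested members did not hold in RPM, where they stood at 24.5 and 37.0 RPM in Dicer cKO sperm and at 38.7, 19.4 and 18.6 RPM in Drosha cKO sperm. With splice-site hairpins left out as well, the 36 untested members overlapped in listed reads too, at 0.0382% and 0.0416% in Dicer cKO sperm, against 0.0822%, 0.00833% and 0.0251% in Drosha cKO sperm. No label or header says what the larger whole numbers behind RPM count.

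miR-149-3p, after miR-8101 the most abundant called miRNA of this composition, stood at 561.0 and 388.4 CPM in Dicer cKO sperm and at 4151, 999.8 and 4711 CPM in Drosha cKO sperm (log2 change -2.51 ± 0.601, adjusted p = 0.017 by edgeR). Drosha cKO replicate 2 lay nearest to the Dicer cKO libraries, as it did for miR-762, miR-5130 and miR-2137. miR-5126, whose 22 bases are all G or C, stood at 219.5 and 268.2 CPM in Dicer cKO sperm and at 1714, 666.5 and 2073 CPM in Drosha cKO sperm (log2 change -2.34 ± 0.592, adjusted p = 0.0202 by edgeR). miR-762 stood at 252.1 and 92.5 CPM in Dicer cKO sperm and at 1991, 416.6 and 1319 CPM in Drosha cKO sperm (log2 change -2.60 ± 0.675, adjusted p = 0.0202 by edgeR). miR-6538, miR-1895, miR-5130 and miR-2137 were called lower with log2 changes of -2.37, -2.32, -2.09 and -1.85. miR-3960, whose base composition was not measured here, was called lower at -2.30. None of these 8 calls held when 1 of the Dicer cKO libraries or Drosha cKO replicate 3 was left out.

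**Figure D2:**
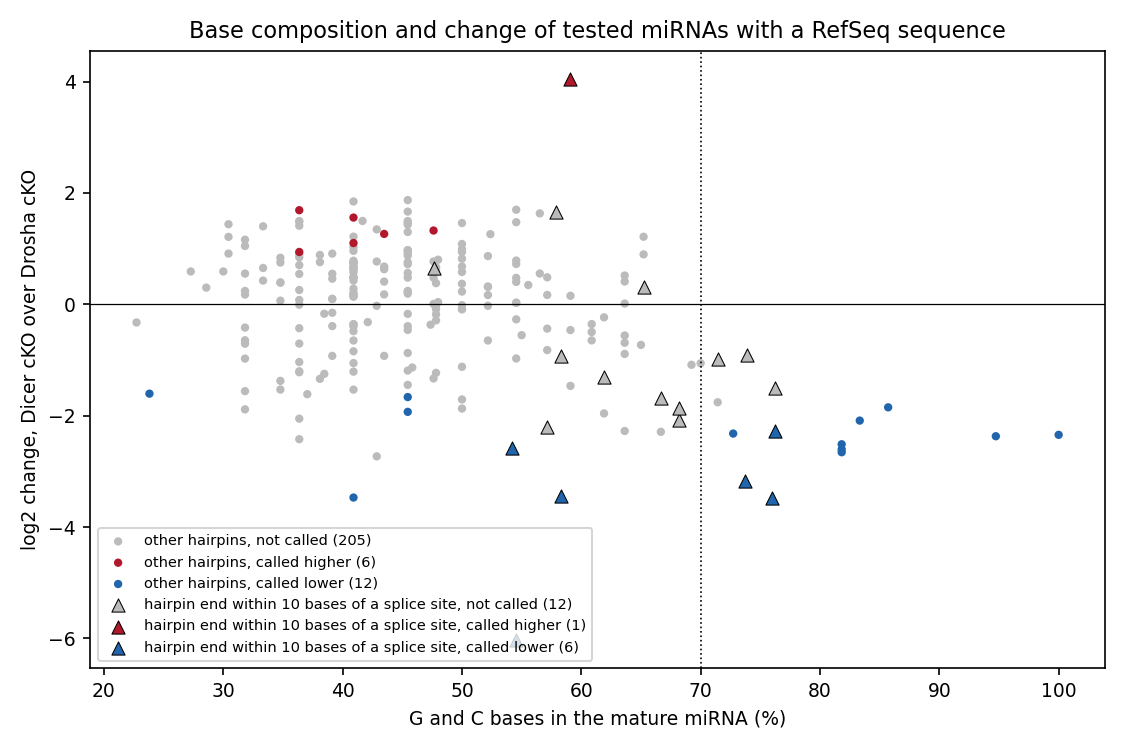
Each symbol is 1 of 242 tested miRNAs with a RefSeq sequence, by the percentage of G and C bases in the mature miRNA and its log2 change in Dicer cKO over Drosha cKO sperm, as triangles where a hairpin end lies within 10 bases of an annotated splice site; the dotted line marks 70%. All 16 miRNAs at or right of the line lie below 0, and the 7 called higher (red) lie left of it.

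Hairpins with an end at a splice site were examined next, because an intron that folds into a hairpin can bypass Drosha but not Dicer. RefSeq hairpins were matched exactly to the NCBIM37 genome, and 210 of the 836 listed hairpins with a single match had an end within 10 bases of an annotated intron end (GENCODE vM1). The position alone does not show that splicing releases the hairpin. Among tested RNAs, 17 such hairpins gave 19 miRNAs, of which 6 were called lower in Dicer cKO sperm and 1 higher, against 7% and 3.33% of all tested RNAs. Their median log2 change was -1.69, and 6 of the 19 also have at least 70% G and C. With the authors' whole numbers as the scale 3 were lower and 2 higher, and without Dicer cKO replicate 1, Dicer cKO replicate 2 or Drosha cKO replicate 3 none was called.

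The hairpin of miR-3547, at chr17:25245551-25245638 on GRCm38.p6, was matched by sequence to NCBIM37, where it spans a whole annotated intron of 88 bases in Baiap3. Its 5p arm had 5 and 1 reads in Dicer cKO sperm, against 36, 3 and 8 reads in Drosha cKO sperm, or 40.7 and 9.25 CPM against 356.7, 249.9 and 502.5 CPM. The groups did not overlap, and the log2 change was -3.49 ± 0.773 (adjusted p = 0.0129 by edgeR). The other hairpin that spans a whole short intron, miR-1981 in an 82-base intron of Mosc2, gave a 5p arm that did not pass (log2 change -0.92 ± 0.64, adjusted p = 0.333 by edgeR). miR-7044-5p, in an intron of Rasgef1a, had 6 and 3 reads in Dicer cKO sperm, against 56, 2 and 8 reads in Drosha cKO sperm (log2 change -3.18 ± 0.712, adjusted p = 0.0129 by edgeR). miR-6937-5p, in an intron of Adi1, had 13 and 17 reads in Dicer cKO sperm, against 54, 13 and 22 reads in Drosha cKO sperm (log2 change -2.59 ± 0.633, adjusted p = 0.0187 by edgeR). Scaled to CPM, both lay lower in each Dicer cKO library than in any Drosha cKO library. In Drosha cKO replicate 2, however, the 2 reads of miR-7044-5p lay below the 3-read floor and the 3 reads of miR-3547-5p at it. miR-7045-5p, in Chd4, was called lower as well, at a log2 change of -2.27 ± 0.666 (adjusted p = 0.0413 by edgeR). The calls of miR-3547-5p, miR-7044-5p, miR-6937-5p and miR-7045-5p were lost when 1 of the Dicer cKO libraries or Drosha cKO replicate 3 was left out.

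The remaining calls at splice sites rest on very few reads. miR-7115-5p, in Arrb2, had 2 and 0 reads in Dicer cKO sperm, against 13, 2 and 2 in Drosha cKO sperm, or 15.2-fold lower in Dicer cKO sperm when the reads of each group were pooled and divided by its pooled listed reads (95% exact counting interval 3.62 to 136.1). miR-6917-3p, in Erbb3, had no read in either Dicer cKO library and 16, 2 and 0 reads in Drosha cKO sperm. With 3 reads over the group as the floor, it was at least 10.8-fold lower in Dicer cKO sperm, although Drosha cKO replicate 3 also lacked it. It was the only one of the 31 called RNAs whose groups overlapped in CPM. miR-6918-3p, in Nipsnap1, went the other way, with 13 and 16 reads in Dicer cKO sperm, against 1, 0 and 0 in Drosha cKO sperm, or 16.2-fold higher in Dicer cKO sperm (95% exact counting interval 2.68 to 660.3). In CPM, both Dicer cKO levels lay below the 3-read floors of Drosha cKO replicates 2 and 3 (249.9 and 188.4 CPM). The lack of reads in those shallow libraries therefore says little, and the contrast rests mainly on Drosha cKO replicate 1. When 1 library was left out, miR-6917-3p passed the filter in 1 of 5 fits and was not called. miR-6918-3p and miR-7115-5p passed it in 2 of 5 fits and were called in 1, the fit without Drosha cKO replicate 2. None of these 3 RNAs was called without Drosha cKO replicate 3. The counting intervals cover counting error only, since reads without molecular identifiers are not independent molecules.

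With no filter, all 346 listed miRNAs from splice-site hairpins held 0.394% and 0.420% of listed reads in Dicer cKO sperm, against 0.942%, 0.775% and 1.16% in Drosha cKO sperm and 0.243% and 0.153% in WT sperm. The 327 that were not tested held 0.189% and 0.179% in Dicer cKO sperm, against 0.460%, 0.383% and 0.515% in Drosha cKO sperm. Their share was thus lower in both Dicer cKO libraries than in all Drosha cKO libraries, as was the share of all untested miRNAs with a RefSeq sequence, at 0.865% and 0.992% in Dicer cKO sperm, against 1.56%, 1.32% and 1.75% in Drosha cKO sperm. With the G- and C-rich members left out, 320 miRNAs held 0.333% and 0.364% in Dicer cKO sperm, against 0.668%, 0.608% and 0.835% in Drosha cKO sperm. In the authors' RPM the sums of all 346 overlapped, at 174.5 and 294.4 RPM in Dicer cKO sperm and 254.0, 225.4 and 245.3 RPM in Drosha cKO sperm. A list of 13 arms known to be made without Drosha's complex had 3 tested members. No call was made among them by edgeR or DESeq2 in either direction, with 0 at an unadjusted p under 0.05. One of them, miR-1981-5p, is also among the splice-site miRNAs above. The others, miR-484 and miR-320-3p, had log2 changes of -0.89 ± 0.583 and 1.35 ± 0.67.

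**Figure D3:**
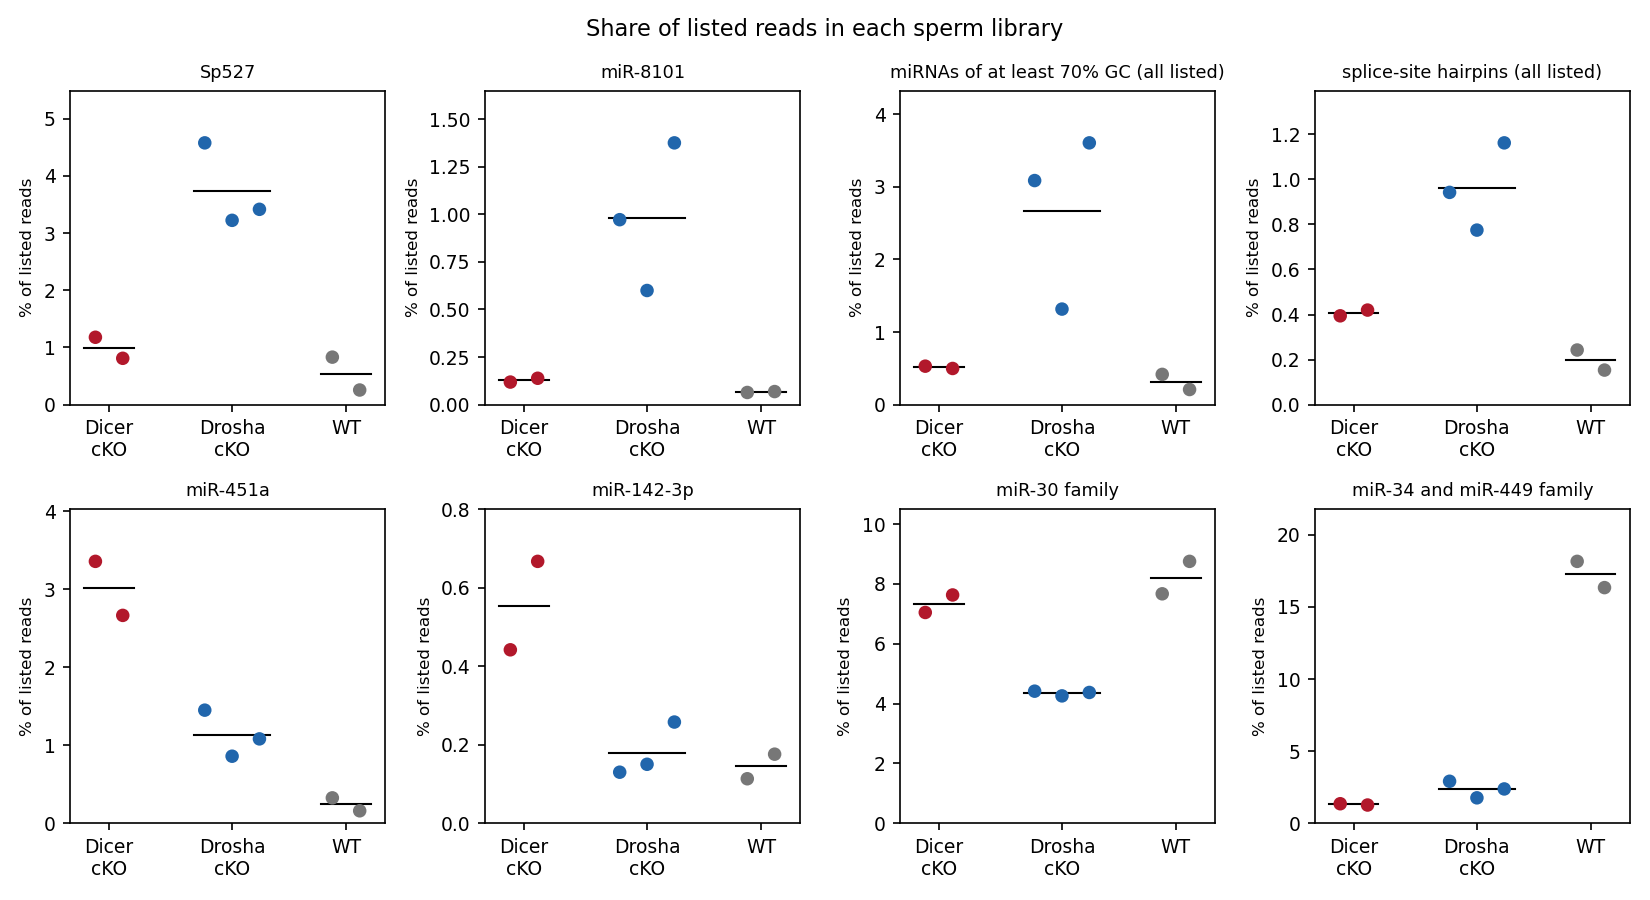
Each point is 1 sperm library, in Dicer cKO (red), Drosha cKO (blue) and WT sperm (grey), with the share of listed reads in percent on the vertical axis and a bar at each group's mean. Sp527, miR-8101 and the sums over all listed G- and C-rich miRNAs and splice-site hairpins lie lower in both Dicer cKO libraries than in all Drosha cKO libraries, miR-451a, miR-142-3p and the miR-30 family lie higher, and the miR-34 and miR-449 family is far above both knockouts in WT sperm.

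Endo-siRNAs, as a class known to need Dicer and not Drosha, were a small part of all 5 libraries. Whether the listed ones are products of Dicer was not tested. All endo-siRNAs held 1.60% and 1.16% of listed reads in Dicer cKO sperm, against 5.39%, 3.88% and 4.91% in Drosha cKO sperm. The groups did not overlap. A single endo-siRNA, listed as Sp527, made up 73.9% and 69.7% of these reads in Dicer cKO sperm, against 84.9%, 83.0% and 69.6% in Drosha cKO sperm. The other 711 together held 0.417% and 0.352% in Dicer cKO sperm, against 0.814%, 0.658% and 1.49% in Drosha cKO sperm. In the authors' RPM these others overlapped between the groups, at 184.6 and 247.0 RPM in Dicer cKO sperm and 219.6, 191.5 and 315.6 RPM in Drosha cKO sperm. In WT sperm they held 1.77% and 0.286%, a range that spans all 5 knockout libraries. WT replicate 1 has at least 1 read listed for 711 of the 712 endo-siRNAs, against 160 in WT replicate 2 and 24 to 139 in the knockout libraries.

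Sp527 stood at 11790 and 8110 CPM in Dicer cKO sperm and at 45792, 32242 and 34169 CPM in Drosha cKO sperm. Every Drosha cKO library lay above both Dicer cKO libraries, and the log2 change was -1.63 ± 0.333 (adjusted p = 0.0114 by edgeR). In WT sperm it stood at 8313 and 2564 CPM. Dicer cKO replicate 1 lay above both WT libraries and Dicer cKO replicate 2 between them, while all 3 Drosha cKO libraries lay above both. It was no longer called without Dicer cKO replicate 2 (adjusted p = 0.161), without Drosha cKO replicate 3 (adjusted p = 0.0706) or with the authors' whole numbers as the scale (log2 change -0.82, adjusted p = 0.228). In RPM the groups still did not overlap, at 521.7 and 568.7 RPM in Dicer cKO sperm and 1235, 938.1 and 721.3 RPM in Drosha cKO sperm. WT sperm had 179.2 and 257.8 RPM, below every knockout sperm library. Within each library, where no scaling enters, there were 2.85 and 3.28 reads of miR-451a per read of Sp527 in Dicer cKO sperm, against 0.316, 0.266 and 0.316 in Drosha cKO sperm. The pair was chosen because both RNAs were called, so the ratio describes the libraries and adds no test.

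Of the 12 endo-siRNAs tested, 2 were called lower and 1 higher in Dicer cKO sperm, with a median log2 change of -1.52, against 7% lower and 3.33% higher among all tested RNAs. An endo-siRNA at low level could pass the filter through the group in which it was high. The median of these 12 therefore does not describe all 712 listed. Sp520 was called lower (log2 change -2.81 ± 0.722, adjusted p = 0.0202 by edgeR), with 3 and 9 reads in Dicer cKO sperm, against 52, 2 and 10 reads in Drosha cKO sperm. Sp453 had 26 and 18 reads in Dicer cKO sperm, against 1, 0 and 0 reads in Drosha cKO sperm, which made it 24.5-fold higher in Dicer cKO sperm (95% exact counting interval 4.18 to 990.7). In CPM, Sp453 in Dicer cKO replicate 2 lay below the 3-read floors of Drosha cKO replicates 2 and 3 (249.9 and 188.4 CPM). Dicer cKO replicate 1 lay between these floors, so the lack of reads in the 2 shallow libraries says little. WT sperm had 2 and 0 reads of Sp453. Without Dicer cKO replicate 2 or Drosha cKO replicate 3 neither Sp520 nor Sp453 was called. Without Dicer cKO replicate 1, Sp520 was not called, and Sp453 did not pass the filter and was not tested. With the authors' whole numbers as the scale Sp520 was not called either (log2 change -1.84, adjusted p = 0.0799 by edgeR).

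miR-34b-3p belongs to the miR-34 and miR-449 family, known from male germ cells in and after meiosis and from ciliated cells. It stood at 1041 and 582.6 CPM in Dicer cKO sperm and at 4458, 2666 and 4146 CPM in Drosha cKO sperm, against 31427 and 20424 CPM in WT sperm. Both knockouts lay far below WT sperm, Dicer cKO sperm farther, with a log2 change between the knockouts of -1.93 ± 0.494 (adjusted p = 0.0202 by edgeR). miR-34b-3p lost its call when either Dicer cKO library or Drosha cKO replicate 3 was left out, and also with no filter. With the authors' whole numbers as the scale it was not called either (log2 change -1.14, adjusted p = 0.147 by edgeR). miR-34b-5p, miR-34c-5p and miR-449a-5p had log2 changes of -0.93, -1.09 and -1.45 and did not pass (adjusted p = 0.122, 0.109 and 0.0761 by edgeR). None of the 3 overlapped between the groups in CPM, but 25.7% of all tested RNAs also lay lower without overlap. miR-34a-5p, which somatic cells also make, had a log2 change of 0.94 in the other direction (adjusted p = 0.122 by edgeR). Of the 6 tested arms, 1 was called lower and none higher, against 7% and 3.33% of all tested RNAs, at a median of -1.27, and DESeq2 called 2 lower, miR-449a-5p besides. The 11 listed arms held 1.35% and 1.26% of listed reads in Dicer cKO sperm, against 2.91%, 1.76% and 2.37% in Drosha cKO sperm and 18.2% and 16.3% in WT sperm. The log2 ratio of these shares, Dicer cKO over Drosha cKO, was -0.85 and turned to 0.30 with the authors' whole numbers as the denominator.

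Other germ cell clusters showed no call. None of the 21 tested arms of the Fmr1-adjacent X-linked cluster, which is active in the testis, was called in either direction by edgeR, and their median log2 change was 0.08. Its most abundant members were miR-741-3p (log2 change -0.39 ± 0.501) and miR-880-3p (log2 change -0.87 ± 0.538). The cluster's share of listed reads overlapped between the groups, at 0.541% and 0.567% in Dicer cKO sperm, against 1.01%, 0.558% and 0.955% in Drosha cKO sperm, whereas WT sperm held 7.36% and 6.41%. None of the 16 tested arms of the Sfmbt2 cluster, a mouse-specific group of repeated miRNAs, was called either, and the median was -0.38. The 10 tested arms of the miR-17-92 and paralog clusters, known from dividing cells, gave no call and a median of 0.50, with miR-19b-3p at 19563 and 16913 CPM in Dicer cKO sperm and 16962, 15330 and 15703 CPM in Drosha cKO sperm. The groups overlapped in miR-19b-3p. At an unadjusted p under 0.05 there was 1 RNA in the first cluster, 1 in the second and 0 in the third, and DESeq2 called 0 in each.

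The let-7 family, typical of differentiated tissues, gave no call among 14 tested arms by edgeR or DESeq2, with 2 at an unadjusted p under 0.05 and a median log2 change of -0.39. Its 23 listed arms held 8.93% and 8.52% of listed reads in Dicer cKO sperm, against 10.8%, 17.6% and 12.8% in Drosha cKO sperm, and the direction turned with the authors' whole numbers as the denominator (log2 ratio -0.65, then 0.47). miR-369-3p, of the imprinted Dlk1-Dio3 cluster, was called lower, at 1464 and 952.5 CPM in Dicer cKO sperm and 3428, 5915 and 4020 CPM in Drosha cKO sperm (log2 change -1.60 ± 0.477, adjusted p = 0.0417 by edgeR). The other 3 tested arms of that cluster were not called, with miR-380-3p at a log2 change of -2.05 ± 0.82. The cluster thus had 1 call, lower, among 4 tested arms, against 7% called lower among all tested RNAs. miR-1950 and miR-6412 complete the calls. miR-1950 had 0 and 3 reads in Dicer cKO sperm, against 13, 3 and 5 in Drosha cKO sperm, or 12.6-fold lower in Dicer cKO sperm (95% exact counting interval 3.75 to 65.7). miR-6412 stood at 544.8 and 869.2 CPM in Dicer cKO sperm and at 2824, 1500 and 3769 CPM in Drosha cKO sperm (log2 change -1.67 ± 0.522, adjusted p = 0.0489 by edgeR). These 3 RNAs also needed both Dicer cKO libraries and Drosha cKO replicate 3 to be called. None of them was called with the authors' whole numbers as the scale. Without Drosha cKO replicate 1, miR-1950 did not pass the filter and was not tested.

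No call was made in the miR-29 family (5 tested, median log2 change 0.75), the miR-10 and miR-100 group with miR-99 and miR-125 (8 tested, 0.61), the miR-15 and miR-16 family (7 tested, 0.20) or the cluster that holds miR-183 and miR-182 (3 tested, -0.15). These lists had 1, 2, 1 and 0 members at an unadjusted p under 0.05 by edgeR, and DESeq2 called 0 in each. miR-10a-5p, which led 1 library of each group, stood at 76332 and 60023 CPM in Dicer cKO sperm and at 71027, 54320 and 34420 CPM in Drosha cKO sperm, and the groups overlapped. In the clusters of miR-23, miR-27 and miR-24, miR-23a-3p was the 1 call, higher, among 6 tested arms. For all tested RNAs, 3.33% were called higher and 7% lower. The median log2 change of these 6 arms was 0.73, and miR-27b-3p had a log2 change of 0.01 ± 0.467. No arm of the miR-290-295 cluster, of embryonic stem cells, passed the filter. The only tested muscle miRNA, miR-1a-3p, stood at 674.9 and 416.1 CPM in Dicer cKO sperm and at 5241, 166.6 and 753.7 CPM in Drosha cKO sperm. It was high in Drosha cKO replicate 1 alone (log2 change -1.71 ± 0.809, adjusted p = 0.173 by edgeR, and 0.41 without that library).

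**Figure D4:**
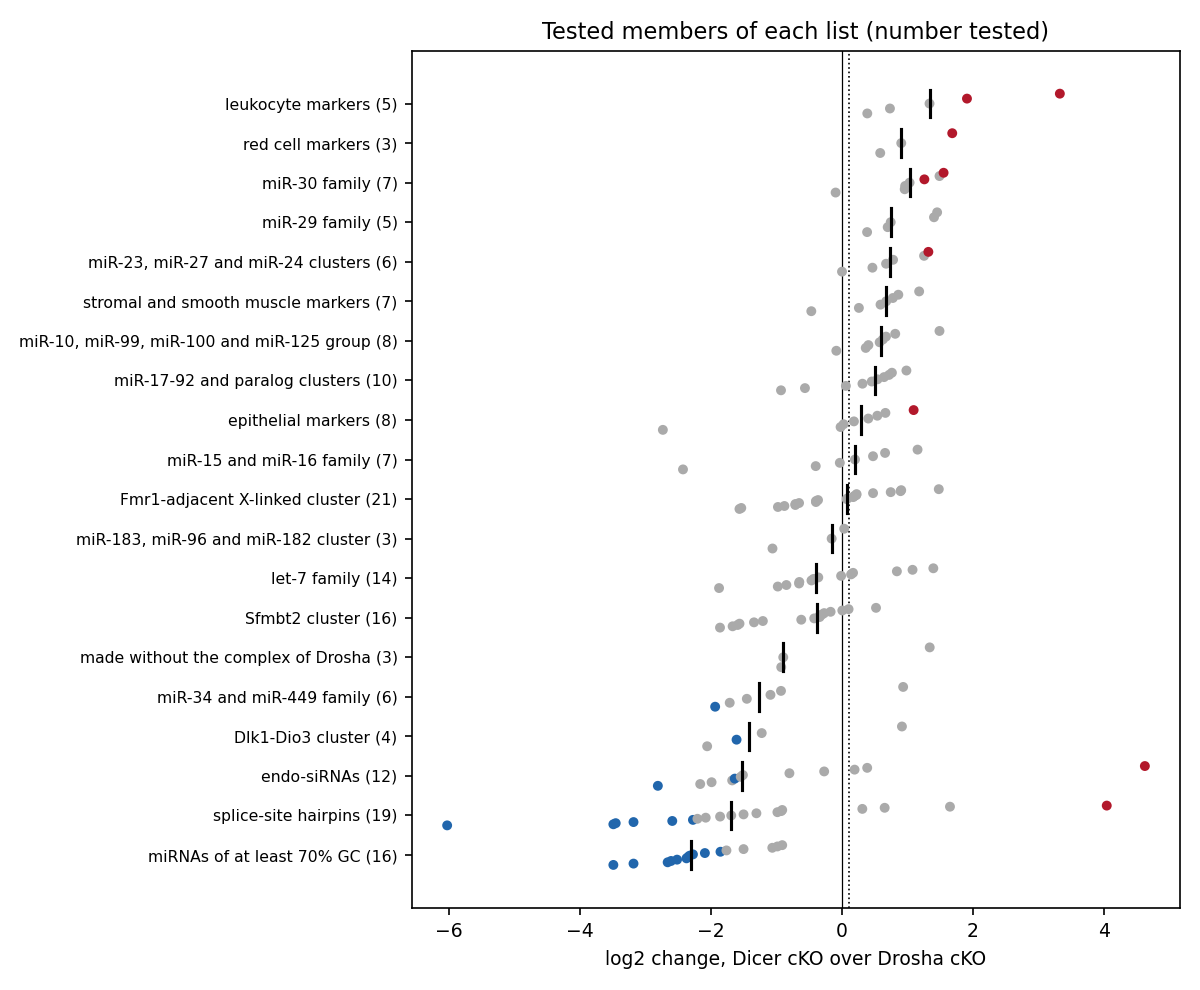
Each point is a tested member of the list named at the left (number tested in brackets), by its log2 change in Dicer cKO over Drosha cKO sperm, in red where called higher, in blue where called lower and in grey where not called; black bars mark list medians and the dotted line the median of all tested RNAs (0.11). Markers of blood cells and the arms of miR-30 lie at the right, with medians from 0.91 to 1.34, and endo-siRNAs, splice-site hairpins and G- and C-rich miRNAs at the left, with medians from -1.52 to -2.30.

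The 2 shallow Drosha cKO libraries also differed from the deep one in single miRNAs. In 6 tested RNAs both replicate 2 and replicate 3 stood more than 4-fold away from replicate 1, 4 above it and 2 below. One of them was miR-15b-3p, the minor arm of its hairpin, at 837.5 and 1702 CPM in Dicer cKO sperm and at 693.5, 11914 and 11808 CPM in Drosha cKO sperm. The deep Drosha cKO library lay below both Dicer cKO libraries and the shallow ones far above, and the log2 change did not pass (-2.42 ± 0.782, adjusted p = 0.0559 by edgeR). miR-429-5p behaved alike, at 203.3 and 369.9 CPM in Dicer cKO sperm and 138.7, 2416 and 4522 CPM in Drosha cKO sperm. let-7b-3p and miR-467d-3p also stood higher in the shallow libraries, and miR-1a-3p and miR-100-5p lower. None of the 6 was called.

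Arm choice, the balance between the 5p and 3p strands of a hairpin after Dicer has cut it, was compared in the 41 hairpins with both arms tested. No hairpin passed (0 of 41, 0%) by edgeR's diffSpliceDGE, and 6 had an unadjusted p under 0.05. The lowest adjusted p, 0.067, was shared by miR-6914, miR-221 and let-7d. In miR-221 the 5p arm made up 1.48% and 1.52% of its reads in Dicer cKO sperm, against 5.43%, 5.97% and 5.77% in Drosha cKO sperm. In let-7d it made up 91.5% and 88.0% in Dicer cKO sperm, against 96.5%, 96.5% and 97.5% in Drosha cKO sperm. In both hairpins the less abundant arm's share did not overlap between the groups, with log2 changes of the 5p to 3p ratio of -1.91 and -1.73. With at least 10 reads asked of each arm, 83 hairpins could be compared and 3 passed, miR-3067, miR-7088 and miR-672. Without Drosha cKO replicate 1, 2 passed, miR-15b and miR-429, the hairpins whose minor arms were high in the shallow libraries.

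**Figure D5:**
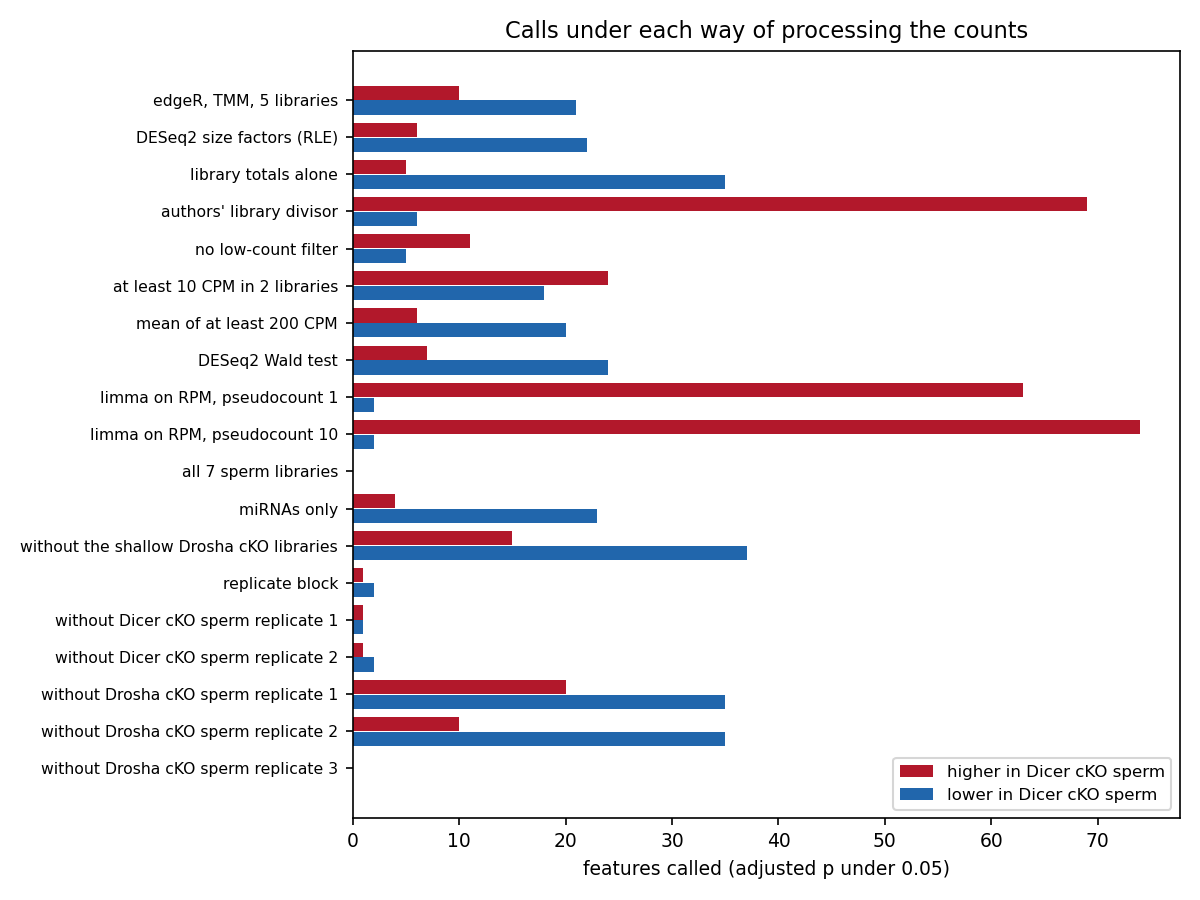
Bars give the number of RNAs called at an adjusted p under 0.05, higher (red) and lower (blue) in Dicer cKO than in Drosha cKO sperm, for the TMM fit of the 5 libraries at the top and for each other way of processing or selecting the libraries below it. The counts are 10 and 21 at the top, 69 and 6 with the whole numbers behind the authors' RPM, and 0 and 0 without Drosha cKO replicate 3 or with WT libraries in the fit.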

How the data were processed

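Small RNA libraries of mouse sperm were compared; libraries of oocytes and 2PN embryos entered no comparison. The count table deposited by the authors gives raw reads per mature miRNA and endo-siRNA. The authors also deposited RPM values, in which each count is divided by 1 whole number per library, recovered here from both tables; no label or header says what it counts. Bowtie and the mm10 build are named per the submitters' processing notes, with no settings. The series text speaks of duplicates on the Ion Torrent Proton, whereas the labels give 3 Drosha cKO libraries and the extract protocol names Illumina preparation; the labels were followed. They do not tell whether each library is a separate animal; p-values then measure only how these samples spread, which may be technical.

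Counts were filtered with filterByExpr, scaled by TMM and tested with edgeR 4.0.16 (quasi-likelihood F test) in R 4.3.3, with Benjamini-Hochberg adjustment over all 300 RNAs and a threshold of 0.05. CPM in the text are counts scaled to listed reads, without TMM factors. DESeq2 1.42.0 and limma 3.58.1, other scalings, filters and sets of libraries were tried as alternatives. RefSeq sequences matched 1333 of the 1592 listed miRNAs. The mm10 genome was not used here, so splice sites come from NCBIM37, by exact matches of hairpins.

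Of the RNAs called with groups that do not overlap in CPM, the text names the 8 with the largest log2 change in each direction, the 6 most abundant RNAs of each group, up to 2 abundant members of each list and the top endo-siRNAs; the remaining calls and the RNAs that differ among Drosha cKO libraries were added after their values were seen. The comparison, its lists and the G and C and splice-site groups were chosen with earlier results of these data known.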

Additional observations from a re-analysis of the deposited data

Results flagged for a closer look

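Reads of some RNAs called in sperm were also present in 2PN embryos made by sperm injection, which the comparison does not use and of which there is 1 library per genotype. In miR-34b-3p and miR-30c-5p the share was above that of the WT embryo library in at least 1 of the knockout libraries and differed between these. miR-34b-3p held 0.373% of listed reads (11 reads) in embryos from Dicer cKO sperm and 0.1% (9 reads) in embryos from Drosha cKO sperm, against 0.278% (9 reads) in WT embryos. miR-30c-5p held 38.2% in embryos from Dicer cKO sperm and 29.4% in embryos from Drosha cKO sperm, against 22.1% in WT embryos. WT oocytes, which hold no sperm, had 0.199% miR-34b-3p and 27.3% miR-30c-5p. miR-23a-3p held 0.712% and 0.725% in embryos from Dicer cKO and Drosha cKO sperm, against 3.73% in WT embryos and 1.57% in WT oocytes. miR-21a-5p had 2 reads in embryos from Dicer cKO sperm and 4 in embryos from Drosha cKO sperm, against 8 in WT embryos. With 1 library each, differences between genotypes were not tested.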

How the results depend on the processing

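Calls numbered 10 higher and 21 lower in Dicer cKO sperm. They numbered 6 and 22 with DESeq2 size factors, 5 and 35 with library totals alone, 69 and 6 with the authors' library number, 11 and 5 with no filter, 24 and 18 at 10 CPM in 2 libraries, 6 and 20 at a mean of 200 CPM, 7 and 24 with DESeq2, 63 and 2 or 74 and 2 with limma on RPM (pseudocount 1 or 10), 4 and 23 for miRNAs alone, and 15 and 37 without both shallow Drosha cKO libraries, where the lone Drosha cKO library is assumed to vary like the Dicer cKO pair. With the WT libraries in the fit edgeR made 0 and 0 calls (65 at an unadjusted p under 0.05). With 1 library left out the counts ran from 0 to 20 higher and from 0 to 35 lower. With the replicate number as a block they were 1 and 2; same-numbered libraries deviated together at r = 0.374 and 0.218 for replicates 1 and 2, but the labels do not say that a number pairs libraries. Arm usage gave 3 hairpins with at least 10 reads in each arm, and 0 to 2 with 1 library left out. The cause of these shifts was not tested.

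Of 901 alternative values for 51 named RNAs, 636 kept their direction and side of the threshold, 138 lost a call, 78 gained one and 49 reversed. Reversed log2 changes follow, in the order authors' library number, no filter, limma with pseudocount 1 and 10. let-7c-5p turned to 0.51, 0.061, 0.51 and 0.51, miR-669a-3p to 0.58, 0.030, 0.54 and 0.46, and miR-96-5p to 0.64, 0.22, 0.68 and 0.55, as well as 0.16 at 10 CPM. Without a filter let-7f-5p, miR-741-3p and miR-880-3p kept their sign, and they turned to 0.21, 0.31 and 0.30, to 0.50, 0.51 and 0.41, and to 0.022, 0.082 and 0.057 in the other 3. miR-1981-5p turned to 0.19 and 0.058 with limma, and miR-1a-3p to 0.34 and 0.028. miR-182-5p turned to -0.020 (DESeq2 size factors), -0.26 (totals), -0.0055 (200 CPM), -0.025 (DESeq2), -0.12 (miRNAs alone) and -0.31 (no shallow libraries). miR-27b-3p turned to -0.043, -0.27, -0.025, -0.043 and -0.11 under the first 5 of these, and miR-467e-5p to -0.18 (totals) and -0.025 (miRNAs alone). With 1 library left out, the range was -0.052 to 0.77 for miR-16-5p (lowest without Dicer cKO replicate 2), -0.49 to 0.30 for miR-182-5p (Dicer cKO replicate 1), -0.37 to 0.48 for miR-27b-3p (Drosha cKO replicate 1), -0.71 to 0.51 for miR-467e-5p (Dicer cKO replicate 2), -0.56 to 0.025 for miR-96-5p (highest without Dicer cKO replicate 2) and -2.37 to 0.41 for miR-1a-3p (highest without Drosha cKO replicate 1).

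With the authors' library number as denominator, the log2 ratios of list shares moved to 0.30 (miR-34 and miR-449), 0.59 (Fmr1-adjacent), 0.36 (Sfmbt2), -0.39 (Dlk1-Dio3), 0.47 (let-7), 1.22 (miR-17-92), 0.50 (miR-183), 1.42 (miR-10 group), 1.92 (miR-30), 1.12 (miR-15 and miR-16), 1.45 (miR-29), 1.72 (miR-23, miR-27 and miR-24), 0.47 (made without Drosha's complex), 1.41 (epithelial), 1.78 (stromal), 2.25 (red cell), 2.44 (leukocyte) and -0.67 (endo-siRNAs).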
